A study of Oryza sativa with 2 samples.

Results

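The ends of chromosomes 11 and 12 with the lowest locus numbers were compared between leaves of the *yl-1* mutant and of wild-type rice. The set was taken by ID alone and holds every entry of the deposited expression table whose locus ID begins with LOC_Os11g or LOC_Os12g and carries a number from 01000 up to, but not including, 03000. LOC_Os11g01340, LOC_Os11g01530, LOC_Os12g01370 and LOC_Os12g01530 were left out. This gave 334 members of the 42152 entries in the table, 168 on chromosome 11 and 166 on chromosome 12. The rule reads IDs and no values, although it was written with earlier results of these data known.

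The short-arm ends of rice chromosomes 11 and 12 are known to carry a duplicated segment, in which many genes exist as pairs of near-identical copies in the same order on both chromosomes. The segment is known for gene conversion, the copying of sequence from one copy onto the other, which keeps the copies alike. A sequencing read from a near-identical copy can fit both loci, so the level given to each copy depends on how the alignment and the quantification shared out such reads. The setting used for this is not known here, and the values of single copies are therefore uncertain. The locus IDs number the genes along each chromosome, so members can be set side by side in ID order. The files do not say which locus on one chromosome is the copy of which on the other, and a shared number is not evidence of a shared origin. No source used here pairs a member with a gene name or a function. Members are therefore called by their IDs.

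Leaves were collected from 4-week-old plants. The *yl-1* group is a mutant from an EMS-induced library of the *indica* cultivar Zhongjiazao 17, and the wild-type group is Zhongjiazao 17 itself, both grown at 26°C. Each group is 1 library of poly(A)-selected RNA sequenced as paired ends, and the level is FPKM, the number of fragments scaled to transcript length and to the total of mapped fragments. A single library stands for each genotype, so no test or replicate error can be given and each difference describes these libraries and not the genotypes. The number of reads behind a value is unknown, and no counting interval can be given. A lower level in bulk leaf can come from fewer cells of a type or from less RNA per cell, which cannot be told apart.

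FPKM summed over the table to 823855 in the library labelled *yl-1* and 738866 in the library labelled wild-type. Transcripts of leaf photosystem subunits were abundant in both. *PsbO*, of the oxygen-evolving complex, stood at 5206 FPKM in *yl-1* and 3824 FPKM in wild-type, and *PsaL*, a subunit of photosystem I, at 2578 FPKM in *yl-1* and 2212 FPKM in wild-type. *YL-1* itself had 1124 FPKM in *yl-1* and 671 FPKM in wild-type. The study describes a strongly lowered *YL-1* transcript in *yl-1* plants, so this level goes against the deposited labels. A supplementary list of the study prints values of these columns under the opposite genotype names for all 24 genes in it. Below, *yl-1* and wild-type stand for the libraries labelled so in the deposited table, and every direction given turns round if those labels are exchanged.

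Of the 334 members, 128 were listed at 0 in both libraries (62 on chromosome 11 and 66 on chromosome 12). This is 38.3% of the members, against 48.5% of the whole table. A further 73 were above 0 in at least 1 library with a mean under 1 FPKM. The remaining 133 members, 65 on chromosome 11 and 68 on chromosome 12, had a mean of at least 1 FPKM and were compared. They are 38.7% of the chromosome 11 end and 41.0% of the chromosome 12 end, against 34.5% of the whole table. The adjoining stretch of the same chromosomes (numbers from 03000 and under 05000) had 30.8% of its 347 entries at this level, and entries with the numbers of the ends on chromosomes 1 to 10 had 42.0% of 1530. The sources drawn on do not say where the duplicated segment stops, so the adjoining stretch may be duplicated too. Members listed at 0 in 1 library numbered 15 in *yl-1* and 6 in wild-type. The same count over the table was 1739 in *yl-1* and 792 in wild-type, so zeros in *yl-1* alone were the more frequent kind in both.

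Transcript levels along the ends were very uneven. On chromosome 11 the 65 compared members had a median of 6.36 FPKM in *yl-1* and 5.53 FPKM in wild-type, and on chromosome 12 the 68 members had a median of 4.98 FPKM in *yl-1* and 4.82 FPKM in wild-type. The medians of all 14559 compared entries of the table were 7.21 FPKM in *yl-1* and 7.31 FPKM in wild-type. A mean of at least 100 FPKM was reached by 6 members on chromosome 11 and 3 on chromosome 12. The 5 members with the highest mean made up 76.0% of the summed FPKM of the chromosome 11 end in *yl-1* and 73.2% in wild-type. On chromosome 12 the share of these 5 was 69.1% in *yl-1* and 61.5% in wild-type.

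**Figure D1:**
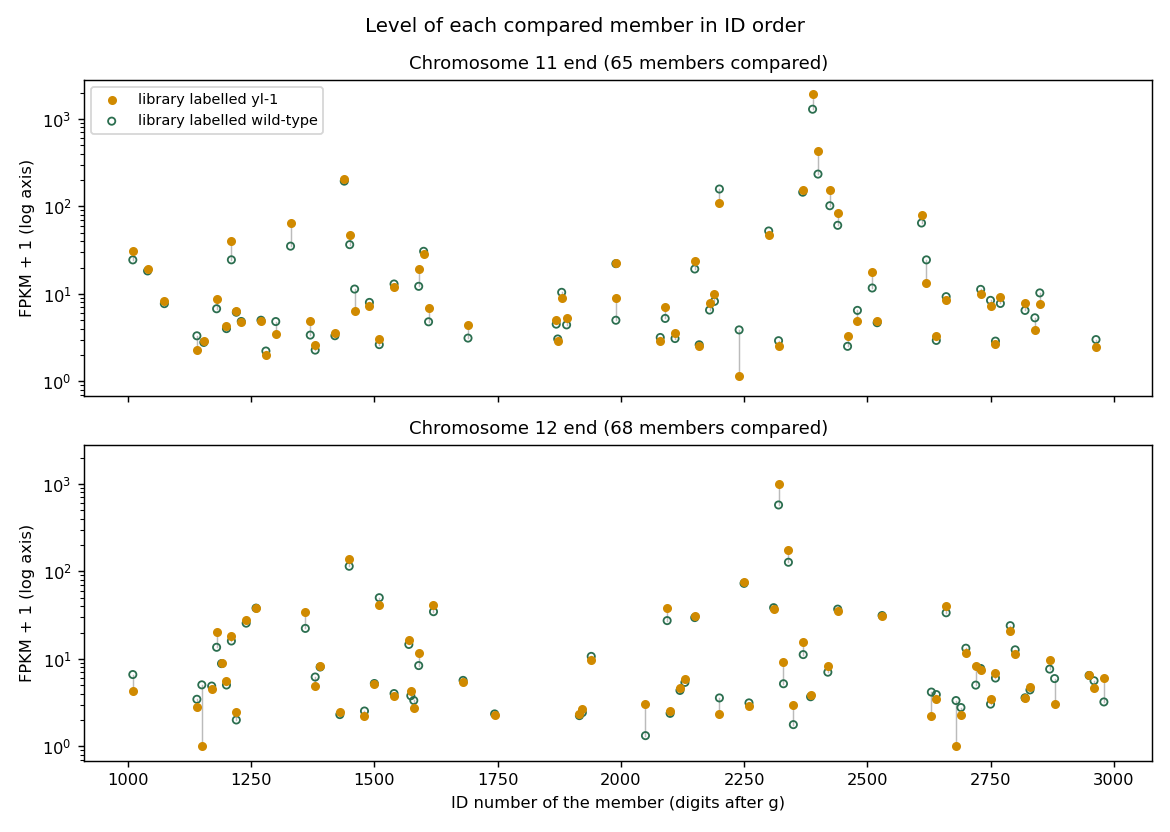
Level of each compared member of the chromosome 11 end (top, 65 members) and the chromosome 12 end (bottom, 68 members) against its ID number. The vertical axis is FPKM + 1 on a log scale, filled points are the library labelled *yl-1*, open points the library labelled wild-type, and a grey line joins the values of 1 member. The highest points of both panels lie between numbers 02300 and 02499, and most filled and open points nearly coincide.

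A single member led each end. LOC_Os11g02389 had 1918 FPKM in *yl-1* and 1288 FPKM in wild-type, a log2 ratio of 0.57. It alone gave 51.9% of the summed FPKM of its end in *yl-1* and 46.8% in wild-type. LOC_Os12g02320 had 993 FPKM in *yl-1* and 573 FPKM in wild-type, a log2 ratio of 0.79, and gave 48.2% of the sum of its end in *yl-1* and 37.7% in wild-type. All log2 ratios here are log2((FPKM + 1) in *yl-1* / (FPKM + 1) in wild-type), so a positive value means higher in *yl-1*. Both leading members were thus higher in *yl-1*, by less than 2-fold.

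The other abundant members differed less evenly. LOC_Os11g02400 had 426 FPKM in *yl-1* and 233 FPKM in wild-type (log2 ratio 0.87). LOC_Os11g01439 stood at 203 FPKM in *yl-1* and 193 FPKM in wild-type (0.07), and LOC_Os11g02369 at 154 FPKM in *yl-1* and 144 FPKM in wild-type (0.10). Both of these small differences turn negative when the libraries are scaled to the same summed FPKM. LOC_Os11g02200 was the one lower member among the 5 highest of chromosome 11, with 108 FPKM in *yl-1* and 157 FPKM in wild-type (-0.53).

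On chromosome 12, LOC_Os12g02340 had 176 FPKM in *yl-1* and 126 FPKM in wild-type (log2 ratio 0.48), and LOC_Os12g01449 had 139 FPKM in *yl-1* and 113 FPKM in wild-type (0.29). LOC_Os12g02250 was nearly level, at 74.7 FPKM in *yl-1* and 72.01 FPKM in wild-type (0.05, negative at the same summed FPKM). LOC_Os12g01510 was lower, at 39.8 FPKM in *yl-1* and 49.1 FPKM in wild-type (-0.30). Of the 10 most abundant members, 5 from each end, 8 were therefore higher in *yl-1*, of which 3 change sign with the scaling.

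Few members differed by 2-fold or more. Of the 133 compared, 1 was at least 2-fold higher in *yl-1*, which is 0.752%, against 2.50% of all entries compared. A further 3 were at least 2-fold lower, which is 2.26%, against 3.65% of all entries. Both shares lie under the background of the table, on very small counts. The median size of the log2 ratio, sign aside, was 0.25 on chromosome 11 and 0.18 on chromosome 12, against 0.24 for the whole table. A ratio within 0.5 either way was held by 76.9% of the compared members on chromosome 11 and 79.4% on chromosome 12, against 77.8% of the table.

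The 4 members past 2-fold were all low in level, and none had a compared partner with the same number. LOC_Os12g02050 was the higher one, with 2.07 FPKM in *yl-1* and 0.328 FPKM in wild-type (log2 ratio 1.21). LOC_Os11g02240 was lower, with 0.158 FPKM in *yl-1* and 2.88 FPKM in wild-type (-1.74). LOC_Os12g01150 was listed at 0 in *yl-1*, against 4.05 FPKM in wild-type. LOC_Os12g02680 was likewise listed at 0 in *yl-1*, against 2.34 FPKM in wild-type. No fold is given against a value listed at 0. Just inside the threshold, 3 members had a log2 ratio between 0.9 and 1 in size. At such levels the ratio depends on the added 1 FPKM, and for LOC_Os11g02240 it was -3.53 with 0.1 FPKM added.

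**Figure D2:**
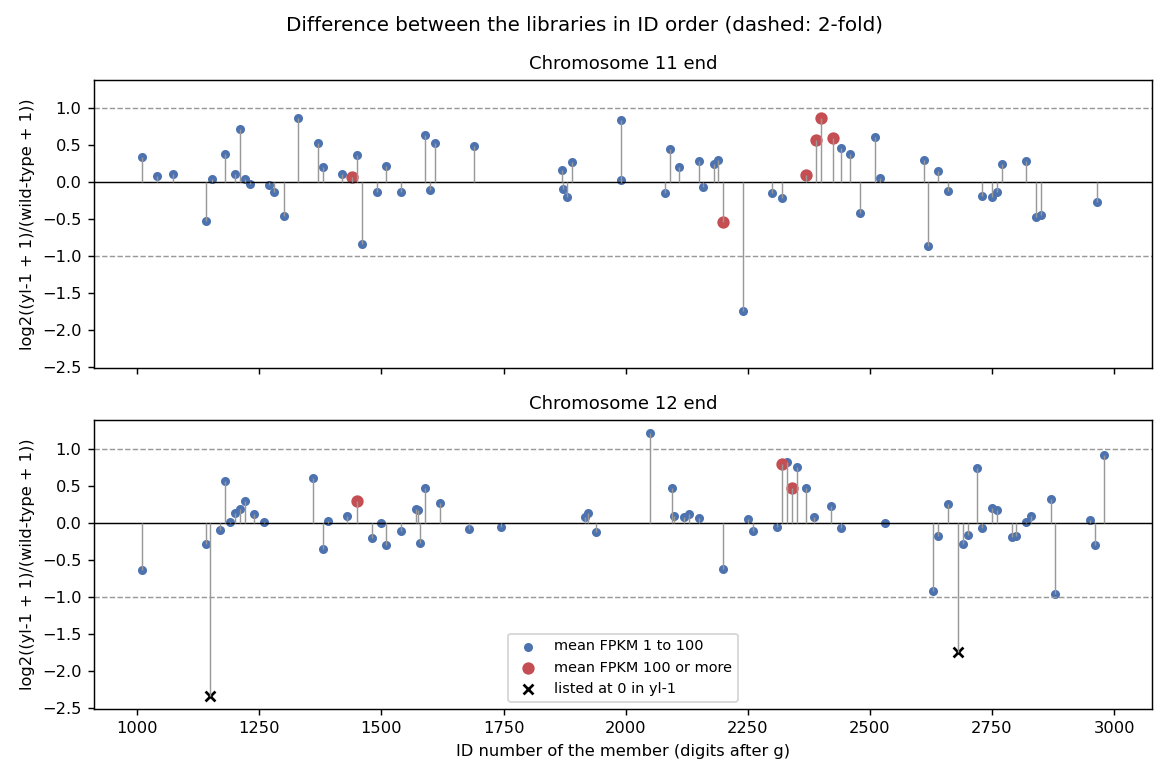
Log2((FPKM + 1) in *yl-1* / (FPKM + 1) in wild-type) of each compared member against its ID number, for the chromosome 11 end (top) and the chromosome 12 end (bottom). Blue points have a mean of 1 to 100 FPKM, red points at least 100 FPKM, crosses mark members listed at 0 in *yl-1*, and dashed lines mark 2-fold. Of the 9 red points 8 lie above 0, and 4 members lie outside the dashed lines.

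The middle of the distribution sat slightly above 0 on both ends. The median log2 ratio was 0.097 on chromosome 11 and 0.058 on chromosome 12, against 0.014 over the whole table, 0.023 in the adjoining stretch and 0.044 for the same numbers on chromosomes 1 to 10. The SD over genes was 0.44 on chromosome 11 and 0.53 on chromosome 12, so these medians are small beside the spread of their members. A log2 ratio above 0 was held by 39 of 65 members on chromosome 11 (60%) and 40 of 68 on chromosome 12 (58.8%), against 51.7% of all entries compared. The adjoining stretch had 57 of 107 above 0 (53.3%), and the same numbers of chromosomes 1 to 10 had 366 of 643 (56.9%). These counts depend on the scaling: at the same summed FPKM 29 of 65 members on chromosome 11 and 27 of 68 on chromosome 12 lay above 0, together 42.1% against 35.7% of all entries. Under that scaling the median of all entries shifted to -0.12 and the medians of the ends turned to -0.059 on chromosome 11 and -0.094 on chromosome 12. Relative to the median of all entries, the ends stood 0.083 and 0.060 higher on chromosome 11 without and with that scaling, and 0.044 and 0.025 higher on chromosome 12.

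With both ends pooled, the median log2 ratio was higher in bands of higher level. Among the 90 members with a mean of 1 to 10 FPKM the median log2 ratio was 0.030, and 48 lay above 0 (53.3%). This is close to all entries in that band, which had a median of 0.016 and 52.1% above 0. The 34 members from 10 to 100 FPKM had a median of 0.15, with 23 above 0 (67.6%). All entries in that band had a median of -0.0020, with 49.6% above 0. By end, the median in this band was 0.30 on chromosome 11 and 0.064 on chromosome 12. The 9 members of at least 100 FPKM had a median of 0.48, and 8 of them lay above 0. Of these 9, LOC_Os11g01439 (0.07), LOC_Os11g02200 (-0.53) and LOC_Os12g01449 (0.29) lie outside the short stretches described below. The others lie within those stretches, which were chosen after their values were seen. Among all entries of at least 100 FPKM, 60% lay above 0, with a median of 0.11. Abundant entries of the same numbers on chromosomes 1 to 10 had 32 of 43 above 0 and a median of 0.29, and the 3 of the adjoining stretch were all above 0 with a median of 0.15. At the same summed FPKM, 6 of the 9 abundant members remained above 0, against 45.5% of the table.

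Summed over each end, FPKM came to 3696 in *yl-1* and 2752 in wild-type on chromosome 11, a ratio of 1.34. On chromosome 12 the sums were 2058 in *yl-1* and 1520 in wild-type, a ratio of 1.35. The whole table had a ratio of 1.12, the adjoining stretch 1.04 and the same numbers on chromosomes 1 to 10 a ratio of 1.19. The chromosome 11 end held 0.449% of all FPKM in *yl-1* and 0.372% in wild-type, and the chromosome 12 end 0.25% in *yl-1* and 0.206% in wild-type. Both ends thus took a larger share of the total in *yl-1*. Without the 5 members of each end with the highest mean, the sums were 888 in *yl-1* and 737 in wild-type on chromosome 11, and 636 in *yl-1* and 586 in wild-type on chromosome 12.

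The ratio of sums was highest in the same window of 500 ID numbers on both ends. For the counts below, 51.7% of all entries compared lay above 0. The window counts are given as deposited only, and at the same summed FPKM the count over both ends fell from 79 to 56 of 133. In the window from 02000 to 02499 the summed FPKM of chromosome 11 was 2949 in *yl-1* and 2090 in wild-type (ratio 1.41), with a median log2 ratio of 0.23 over 18 members, 11 of them above 0. The same window of chromosome 12 summed to 1436 FPKM in *yl-1* and 941 FPKM in wild-type (ratio 1.53), with a median of 0.11 over 18 members, 14 of them above 0. In the last window, from 02500 on, the libraries were nearly level. Its sums were 168 FPKM in *yl-1* and 165 FPKM in wild-type on chromosome 11, and 171 FPKM in both on chromosome 12. There 6 of 14 members of chromosome 11 and 9 of 20 of chromosome 12 lay above 0. In the second window, 01500 to 01999, the ends differed, with 8 of 12 members of chromosome 11 above 0 and a median of 0.19, and 6 of 13 members of chromosome 12 above 0 and a median of -0.0020. In the first window, 01000 to 01499, 14 of 21 members of chromosome 11 and 11 of 17 of chromosome 12 lay above 0, with sums of 459 FPKM in *yl-1* and 390 FPKM in wild-type on chromosome 11 and 311 FPKM in *yl-1* and 269 FPKM in wild-type on chromosome 12.

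Within the window from 02000 to 02499, a short stretch around the leading member of each end was examined more closely. It runs from LOC_Os11g02369 to LOC_Os11g02440 and from LOC_Os12g02310 to LOC_Os12g02370, and it was chosen after its values were seen, so its values are a description only. On chromosome 11 it has 7 entries, of which 5 were compared and 5 lay above 0, with log2 ratios from 0.10 to 0.87. Besides the leading members described above, LOC_Os11g02424 had 152 FPKM in *yl-1* and 101 FPKM in wild-type (0.59), and LOC_Os11g02440 had 82.9 FPKM in *yl-1* and 59.7 FPKM in wild-type (0.47). The stretch summed to 2733 FPKM in *yl-1* and 1826 FPKM in wild-type, a ratio of 1.5, and made up 73.9% of its end in *yl-1* and 66.4% in wild-type.

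The stretch of chromosome 12 has 6 entries, all compared, of which 5 lay above 0. LOC_Os12g02330 had 8.22 FPKM in *yl-1* and 4.202 FPKM in wild-type (0.83), LOC_Os12g02350 1.99 FPKM in *yl-1* and 0.774 FPKM in wild-type (0.75), and LOC_Os12g02370 14.5 FPKM in *yl-1* and 10.2 FPKM in wild-type (0.47). The exception was LOC_Os12g02310, at 36.0 FPKM in *yl-1* and 37.5 FPKM in wild-type (-0.06). The stretch summed to 1230 FPKM in *yl-1* and 752 FPKM in wild-type, a ratio of 1.64, and made up 59.7% of its end in *yl-1* and 49.5% in wild-type. Outside these stretches the ratio of sums was 1.04 on chromosome 11 and 1.08 on chromosome 12. Taking out stretches chosen after their values were seen lowers these ratios by construction, so they cannot be set against the table. Of the members outside the stretches, 34 of 60 on chromosome 11 and 35 of 62 on chromosome 12 lay above 0, with medians of 0.063 and 0.030. These shares are 56.7% and 56.5%, beside 51.7% of all entries and 56.9% for the same numbers on chromosomes 1 to 10. The choice of the stretches lowers these counts and medians by construction too. When both libraries were scaled to the same summed FPKM, 4 of 5 compared members of the chromosome 11 stretch and 5 of 6 of the chromosome 12 stretch remained above 0. That scaling multiplies *yl-1* by only 0.897, and the positive ratios other than that of LOC_Os11g02369 were 0.47 or more. Their signs could therefore not turn, and these counts say nothing beyond the choice of the stretches. Of all entries, 35.7% lay above 0 at that scaling.

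Members next to each other in ID order shared a direction about as often as entries of the adjoining stretch, and the share depended on the scaling. Of adjacent pairs of compared members, 39 of 64 on chromosome 11 (60.9%) and 40 of 67 on chromosome 12 (59.7%) had log2 ratios of the same sign. The share was 59.0% in the adjoining stretch, 52.8% for the same numbers on chromosomes 1 to 10 and 52.0% over the table. The differences between these shares were not tested, and at the same summed FPKM the share was 48.4% on chromosome 11 and 56.7% on chromosome 12. The share over the table is not given at that scaling. As deposited, the 6 runs of at least 5 members of 1 sign were all above 0, while at the same summed FPKM 2 such runs were above 0 and 3 below. On chromosome 11 the runs as deposited were 5 members from LOC_Os11g01154 to LOC_Os11g01220, 6 from LOC_Os11g01330 to LOC_Os11g01450 with a median of 0.29, and 6 beginning at LOC_Os11g02369 with a median of 0.52. On chromosome 12 they were 8 members from LOC_Os12g01180 to LOC_Os12g01360 with a median of 0.16, 6 from LOC_Os12g02050 to LOC_Os12g02150 with a median of 0.11, and 7 from LOC_Os12g02320 to LOC_Os12g02420 with a median of 0.48.

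Levels of the chromosome ends were then set side by side in bins of 100 ID numbers, a step added after the single values were seen. Bin 02300 to 02399 had the highest summed level of 20 bins on both chromosomes, with 1803 FPKM on chromosome 11 and 994 FPKM on chromosome 12 as the mean of both libraries. It held 55.9% of the chromosome 11 end and 55.6% of the chromosome 12 end. The bin from 01400 to 01499, which contains LOC_Os11g01439 and LOC_Os12g01449, held 7.94% of the chromosome 11 end and 7.23% of the chromosome 12 end. The bin from 01700 to 01799 was among the lowest of both, with 1.06 FPKM on chromosome 11 and 2.32 FPKM on chromosome 12. Other bins parted. The bin from 02400 to 02499 held 16.6% of the sum of chromosome 11 and 2.42% of that of chromosome 12. The bin edge at 02400 divides the short stretch described above on chromosome 11, while that of chromosome 12 lies wholly in the bin from 02300 to 02399. The bin from 01000 to 01099 held 51.9 FPKM on chromosome 11 and 4.63 FPKM on chromosome 12, and the bin from 01800 to 01899 held 20.2 FPKM on chromosome 11 and 0.265 FPKM on chromosome 12.

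Over the 20 bins, log2(summed FPKM + 1) of chromosome 11 and chromosome 12 had a Pearson r of 0.67 and a Spearman rho of 0.68. Without the highest bin r was 0.51 and rho 0.63 over 19 bins. Bins of the same numbers had r of 0.25 and rho of 0.080 between chromosomes 9 and 10, and r of 0.022 and rho of 0.12 between chromosomes 7 and 8. Without the highest bin these were r of -0.18 and rho of -0.074, and r of 0.061 and rho of 0.13. All these bins share the same libraries, and the number of entries and of compared members in a bin was not held fixed. Reads that fit loci on both chromosome 11 and chromosome 12 may enter these sums in an unknown share, and their effect was not tested. The correlations are descriptions, and the difference between chromosome pairs was not tested.

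**Figure D3:**
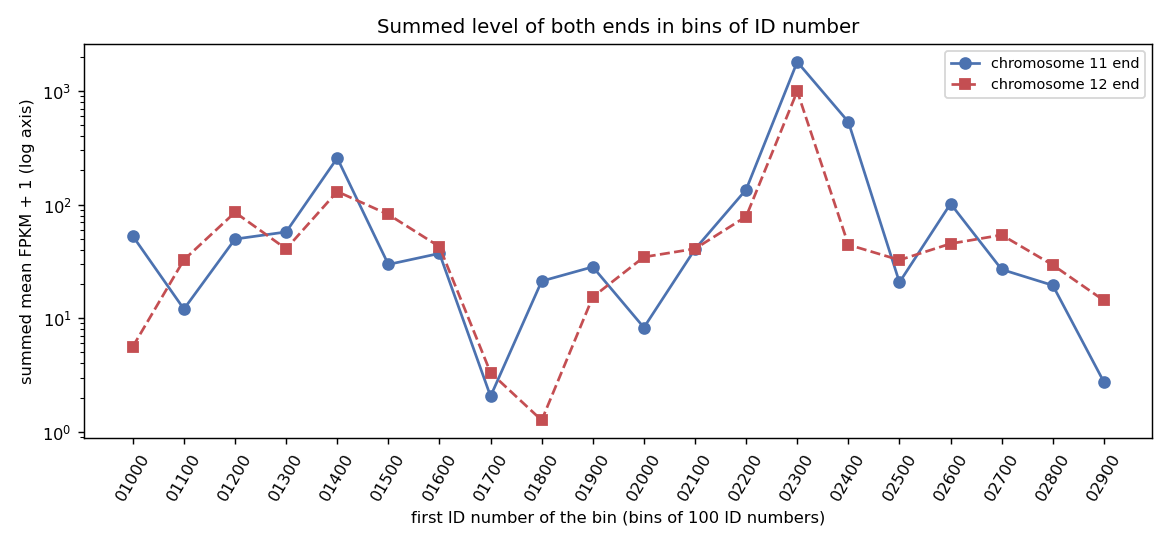
Summed level of the chromosome 11 end (blue circles) and the chromosome 12 end (red squares) in 20 bins of 100 ID numbers, as mean FPKM of both libraries + 1 on a log axis. Both lines peak in the bin from 02300 to 02399, at 1803 FPKM on chromosome 11 and 994 FPKM on chromosome 12, and both are low at 01700 to 01799.

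Single members with the same number showed little likeness in level. There were 110 such pairs. In 20 of them both members were compared, in 21 the chromosome 11 member alone and in 25 the chromosome 12 member alone, and in 44 neither was. The partner was listed at 0 in both libraries in 17 of the 21 and in 14 of the 25. Among the 20 pairs with both compared, the chromosome 11 member was the more abundant in 10. The fold between the pair members had a median of 2.68 and ranged from 1.19 to 457, with 7 pairs within 2-fold and 3 at least 10-fold apart. Mean levels had a Pearson r of 0.084 and a Spearman rho of 0.10 over all 110 pairs. All same-number pairs had r of 0.086 between chromosomes 7 and 8 (130 pairs) and -0.14 between chromosomes 9 and 10 (56 pairs). For chromosomes 11 and 12, r was -0.27 over the 66 pairs with at least 1 member compared. Leaving out the pairs low in both pulls this value down by construction. When entries of chromosomes 11 and 12 were paired by their rank in ID order instead of their number, r of the level was 0.28 and rho 0.26 over all 160 pairs. Over the 36 of these pairs with both compared, r was 0.38 and rho 0.11. The same pairing over all entries gave r of 0.086 between chromosomes 7 and 8 (165 pairs) and -0.087 between chromosomes 9 and 10 (114 pairs).

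In 3 pairs both members had a mean of at least 10 FPKM. Number 02150 was the closest pair, with LOC_Os11g02150 at 22.5 FPKM in *yl-1* and 18.2 FPKM in wild-type (log2 ratio 0.29), and LOC_Os12g02150 at 30.01 FPKM in *yl-1* and 28.7 FPKM in wild-type (0.06, negative at the same summed FPKM). At number 01210, LOC_Os11g01210 had 39.4 FPKM in *yl-1* and 23.5 FPKM in wild-type (0.72), and LOC_Os12g01210 had 17.2 FPKM in *yl-1* and 15.0 FPKM in wild-type (0.18). In the last pair, LOC_Os11g02440 was higher in *yl-1* as given above, while LOC_Os12g02440 had 34.4 FPKM in *yl-1* and 36.0 FPKM in wild-type (-0.06). The chromosome 11 member had the higher log2 ratio in all 3 of these pairs, but in 10 of the 20 pairs with both compared.

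The log2 ratios of same-number members were alike in sign in 11 of 20 pairs, 7 with both above 0 and 4 with both below. Their Pearson r was 0.20 and Spearman rho 0.10. Same-number pairs of chromosomes 7 and 8, both compared, had r of 0.26 and rho of 0.44 over 23 pairs. Because numbers may have drifted apart between the chromosomes, each chromosome 11 member was also set beside the chromosome 12 number from 120 lower to 120 higher, in steps of 10. Over these 25 offsets r of the mean level ran from -0.15 to 0.23 and was positive at 14, and r of the log2 ratio ran from -0.66 to 0.43 and was positive at 14. The same steps between chromosomes 7 and 8 gave r of the level from -0.14 to 0.20 and r of the log2 ratio from -0.44 to 0.44. Between chromosomes 9 and 10 r of the level ran from -0.18 to 0.58.

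**Figure D4:**
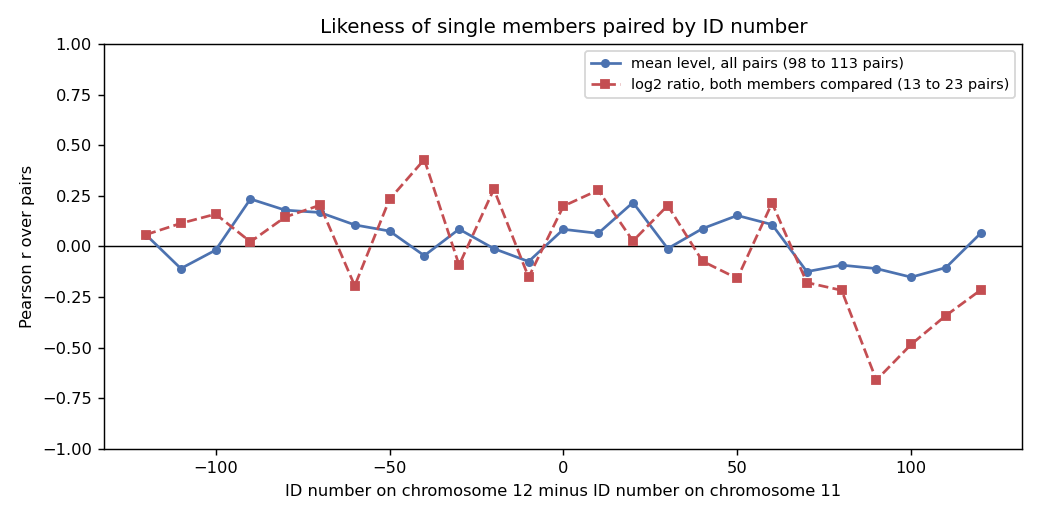
Pearson r between members of the chromosome 11 end and the chromosome 12 end paired by ID number, against the offset of the chromosome 12 number. Blue circles are mean log2(FPKM + 1) over all pairs (98 to 113 pairs an offset), and red squares are log2 ratios of *yl-1* over wild-type where both members were compared (13 to 23 pairs). Level r stays between -0.15 and 0.23, and the lowest ratio r, -0.66, rests on 13 pairs.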

How the data were processed

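The authors deposited 1 table of FPKM values with a column for each of 2 leaf libraries, which were assigned to genotypes by the column names. According to the processing notes of the submitters, TopHat, Cufflinks and Cuffdiff were run. Versions, the build, the annotation and how reads that fit several loci were counted are not given in the sources drawn on. From the deposited FPKM, log2 ratios with 1 FPKM added were computed for entries with a mean of at least 1 FPKM, and entries past 2-fold were counted. The members and lists were chosen with earlier results of these data known. Named members are the 5 most abundant of each end, those past 2-fold, same-number pairs with both means of at least 10 FPKM, those listed at 0 in 1 library with a mean of at least 1 FPKM, and those of the stretch chosen after its values were seen. A total of 17 members share a name with another entry, and 4 compared members carry several IDs. No member ID matched the RefSeq table of assembly ASM3414082v1, so no names or sequences are given. The alternatives were other pseudocounts, filters, thresholds, scalings and pairings. The functions were tested on simulated data. Figures were drawn with matplotlib 3.10.9, and values were computed in Python 3.11.15 with pandas 2.3.3, scipy 1.17.1 and numpy 2.4.6.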

Additional observations from a re-analysis of the deposited data

How the results depend on the processing

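No paired analysis was possible because each genotype has 1 library. The counts past 2-fold were small and moved with these choices. The 4 members past 2-fold had means from 1.17 to 2.03 FPKM, so a filter at 5 FPKM takes them out and their ratios depend on the FPKM added. With 0.1 or 0.01 FPKM added, the chromosome 12 end had 3 members higher in *yl-1* and 4 lower. With any mean above 0 FPKM let in, 2 were higher on chromosome 12. With a mean of at least 5 FPKM, 0 were higher and 0 lower on chromosome 12 and 0 lower on chromosome 11. At the same summed FPKM, 4 were lower on chromosome 12 and 2 on chromosome 11. At 1.5-fold, chromosome 11 had 7 higher and 3 lower and chromosome 12 had 7 higher and 6 lower, and at 4-fold chromosome 11 had 0 lower and chromosome 12 had 0 higher and 1 lower. The share of all entries is not given at these other settings, so these counts cannot be set against the table. The median log2 ratio at a mean of at least 5 FPKM was 0.25 over 37 members of chromosome 11 and 0.18 over 33 of chromosome 12. With any mean above 0 FPKM let in, 106 members of chromosome 11 entered. At the same summed FPKM the medians were -0.059 on chromosome 11 and -0.094 on chromosome 12, and at the same upper quartile -0.015 on chromosome 12, where the median of all entries was -0.050. LOC_Os11g01439 turned to -0.087 at the same sum and -0.0053 at the same upper quartile, LOC_Os11g02369 to -0.059 at the same sum, LOC_Os12g02150 to -0.088 and -0.0084, and LOC_Os12g02250 to -0.10 and -0.021. These sign changes follow from the scaling factor itself. Over same-number pairs the correlation of level was -0.026 with any mean above 0 FPKM let in and -0.50 at a mean of at least 5 FPKM. With at least 1 member compared, it was -0.033 over entries of the same rank and -0.50 at an offset of -10. Over all pairs, those at 0 in both members included, it was 0.084, a setting chosen after seeing the data. The correlation of log2 ratios ran from -0.19 to 0.43 over 23 alternatives, whose offsets reach 60 either way, and to -0.66 at the wider offsets. With 1 library per genotype no value has an error, the depth is unknown, and reads shared between near-identical copies limit every value of a single locus.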
